A study of Saccharomyces cerevisiae with 8 samples.

Results

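The response of the trm2 knockout to hygromycin B was taken as the difference between 2 libraries of knockout cells grown with the drug and 2 libraries of knockout cells grown without it, 4 of the 8 RNA-seq libraries of the series. The comparison ran over the 6439 of 7127 features that had a mean of at least 1 FPKM (fragments mapped to a gene, scaled for transcript length and library size) over the 8 libraries. All cells were Saccharomyces cerevisiae of strain BY4741, a haploid laboratory strain of mating type a. The study asked how 5-methyluridine, made by Trm2, bears on expression under an inhibitor of elongation. The other 4 libraries were wild type, 2 without and 2 with the drug, and are used here only to show where the knockout response differed. Hygromycin B was given at 50 µg/mL, and the untreated groups received none. Knockout cultures, with or without hygromycin B, also held 200 µg/mL Geneticin, and the labels do not give it for wild type. Loss of TRM2 and Geneticin therefore cannot be told apart where genotypes are compared. The protocol gives an OD600 of 0.4 at harvest for hygromycin B cultures and 0.6 to 0.8 for the others, so drug and harvest density cannot be told apart either. The series describes its libraries as biological duplicates, and with 2 per group every p value rests on the spread between pairs of libraries.

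Trm2 is the methyltransferase that makes 5-methyluridine in the T arm of nearly all yeast tRNAs. Hygromycin B is an aminocyclitol that binds the small ribosomal subunit near the decoding centre and hinders the step in which tRNAs and mRNA move through the ribosome. Yeast under many kinds of stress raise a shared set of protective genes through the activators Msn2 and Msn4, and lower genes for ribosome assembly and translation. Cells also read glucose through a separate circuit in which the repressor Rgt1 and its partners Mth1 and Std1 control the hexose transporters.

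TRM2 was listed at 0 in all 4 knockout libraries and stood between 116 and 158 normalised FPKM in wild type. Normalised FPKM are the deposited FPKM after division by 1 factor for each library. The a-type markers STE2, BAR1, ASG7, AGA2 and STE6 were between 12.0 and 708 in every library, the alpha-type markers MF(ALPHA)1, MF(ALPHA)2, STE3 and SAG1 were at most 30.1, and the a-factor genes MFA1 and MFA2 were listed at 0 throughout. LEU2, URA3 and MET17, which are deleted in BY4741, were at 0 in all libraries, and HIS3, which carries a partial deletion there, was between 34.4 and 54.0. The files hold FPKM only, so the sequencing depth of the libraries is unknown. The ribosomal DNA features took 19.3% and 5.36% of the FPKM sum in the untreated knockout libraries and 3.75% and 12.2% in the treated ones, so this share differed within both groups and did not separate them. Log2 values of paired libraries of a group correlated across genes with r of 0.984 to 0.989.

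Between knockout libraries with and without hygromycin B, which also differed in harvest density, 2778 of 6439 genes changed (43.1%). A change here means a Benjamini-Hochberg adjusted p under 0.05 in limma on log2(normalised FPKM + 1). Of the 2778 genes, 1343 rose (20.9% of genes tested) and 1435 fell (22.3%). Most changes were small: 72 genes rose (1.12%) and 75 fell (1.16%) by at least 2-fold, and the median size of the log2 change over all genes was 0.236. Wild type given the same drug changed 5071 genes (78.8%), 946 of them at least 2-fold higher (14.7%) and 939 at least 2-fold lower (14.6%), with a median size of 0.652. On the first principal component, which held 73.0% of the variance, the untreated knockout libraries lay at -34.0 and -32.4, the treated ones at -15.4 and -16.6, untreated wild type at -18.9 and -19.3, and treated wild type at 72.0 and 64.5. On the second component, with 12.9% of the variance, the untreated knockout libraries lay at 4.73 and 2.87, the treated knockout libraries at 20.5 and 22.7, untreated wild type at -24.5 and -26.1 and treated wild type at -0.162 and -0.0888. The treated knockout libraries thus stood near untreated wild type on the first axis and farthest from it on the second. Absolute amounts were not measured, so in these bulk samples every change is relative to the other genes of the library, and less RNA per cell cannot be told apart from fewer cells with the RNA.

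The counts depended on how libraries were scaled and on single libraries. With FPKM as deposited, the median change of all genes moved from -0.02 to 0.36 and 82 genes rose and 23 fell. With TPM (each library scaled to the same sum) the median moved to 0.26 and 1370 rose and 143 fell. The share of changes that were rises was thus 48.3% under the median-of-ratios scaling, 78.1% as deposited and 90.5% with TPM. List medians below are read against the median of all genes, and parentheses beside a list name each left-out knockout library that moved its larger count by over 1.5 times. Leaving out one library left 1918 changed genes without untreated knockout library 1, 1670 without untreated library 2, 1740 without treated library 1 and 1449 without treated library 2, of which 1429 were among the 2778.

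Among all genes tested, 43.1% changed in the knockout and 78.8% in wild type. Of the genes changed in the knockout, 2422 also changed in wild type, which is 87.2% of the knockout changes and 47.8% of the wild-type changes. The direction was shared by 2098 of them and opposite in 324. Among those with a shared direction the knockout change was the smaller one in 1815, and for 1380 of these the difference itself passed the test (the genotype by hygromycin B interaction of the same fit, which passed for 4152 genes, 64.5%). The knockout change was the larger one, with the interaction past the threshold, in 63. Of the 72 genes that rose at least 2-fold, 58 rose in wild type too, beside 40.4% of all genes. The interaction called the knockout change smaller in 33 of the 58. It called the change larger in 12 of the 72, which shared the direction in wild type whether called there or not. Of the 75 that fell at least 2-fold, 53 fell in wild type, beside 38.4% of all genes. The knockout change was smaller in 25 of the 53 and larger in 20 of the 75, counted in the same way.

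**Figure D1:**
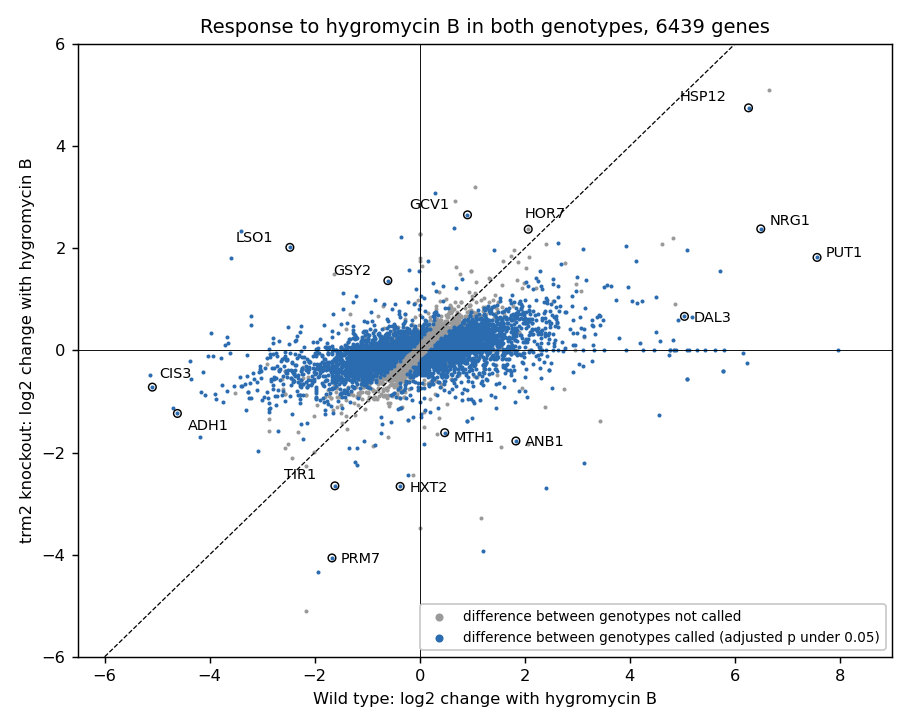
Log2 change with hygromycin B of 6439 genes, wild type on the horizontal axis and trm2 knockout on the vertical axis, 1 symbol per gene; blue marks an interaction past the threshold and the dashed line is equal change. The cloud is flatter than the dashed line, with median sizes of 0.236 in the knockout and 0.652 in wild type, while GCV1, HXT2 and PRM7 lie farther from 0 on the knockout axis than on the wild-type axis.

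Genes of the general stress response rose in the treated knockout, where 20.9% of all genes rose and 22.3% fell. Of the 64 tested members of the list of Msn2/4-type genes, 40 rose and 2 fell, with a median log2 change of 0.50 against -0.02 over all genes (24 rose without treated library 2). HSP12, a small protein of the plasma membrane that is abundant in stressed cells, stood at 67.3 and 48.3 normalised FPKM in the untreated and 1414 and 1722 in the treated knockout libraries. Both treated libraries were thus far above both untreated ones, and HSP12 had the largest fold among genes detected in all 4 libraries (log2 change 4.75, SE 0.28, adjusted p = 0.000203). DDR2, another small multistress protein, was listed at 0 in both untreated libraries and at 74.0 and 14.6 normalised FPKM in the treated ones, so no fold is given. HOR7, a small membrane protein induced by osmotic stress, went from 214 and 199 normalised FPKM without the drug to 1007 and 1141 with it (log2 change 2.37, SE 0.13, adjusted p = 0.000171). HSP42, a small heat shock protein that sorts misfolded proteins into aggregates, stood at 39.7 and 40.6 normalised FPKM in the untreated and 155 and 165 in the treated knockout libraries (log2 change 1.97, SE 0.13, adjusted p = 0.000284). The rule that named these genes required treated and untreated pairs without overlap, so the lack of overlap is no separate result. Log2 rises of 1.99 (adjusted p = 0.000171) for the 6-phosphogluconolactonase SOL4, 1.72 (adjusted p = 0.000171) for DCS2, a regulator of the scavenger decapping enzyme, and 1.57 (adjusted p = 0.000146) for the glutamate decarboxylase GAD1 followed, and the small heat shock protein HSP26 rose by 1.43 (adjusted p = 0.000349). RTC3, YOL118C and YOR289W, the last 2 without an assigned function, were also among the highest, with log2 changes of 2.09, 2.04 and 1.96. In wild type HSP12 reached 7815 and 5379 normalised FPKM and rose by more (interaction log2 -1.51, adjusted p = 0.0139). HSP42 rose by less there (interaction log2 0.55, adjusted p = 0.0356), and GAD1, with a wild-type log2 change of -0.20, differed between genotypes (interaction log2 1.77, adjusted p = 6.09e-05). For HOR7 the difference between genotypes did not pass the threshold (interaction log2 0.31, adjusted p = 0.188).

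Msn2 and Msn4 bind a short element, AGGGG or its reverse complement CCCCT. The windows from 350 to 101 bases before the start codon of HSP12 and HSP42 are shown because the 2 genes carry the response at high and moderate folds and differ in how the element is arranged. Capitals mark each AGGGG in either orientation, and the sequences are RefSeq assembly R64, written 5′ to 3′ on the gene's strand.
HSP12 (chrVI:106906-107155, plus strand): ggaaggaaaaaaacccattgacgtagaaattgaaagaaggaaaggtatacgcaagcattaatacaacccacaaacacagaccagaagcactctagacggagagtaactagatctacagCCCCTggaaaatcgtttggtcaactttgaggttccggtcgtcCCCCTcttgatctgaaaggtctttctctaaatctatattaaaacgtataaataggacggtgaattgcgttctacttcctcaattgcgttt
HSP42 (chrIV:806271-806520, plus strand): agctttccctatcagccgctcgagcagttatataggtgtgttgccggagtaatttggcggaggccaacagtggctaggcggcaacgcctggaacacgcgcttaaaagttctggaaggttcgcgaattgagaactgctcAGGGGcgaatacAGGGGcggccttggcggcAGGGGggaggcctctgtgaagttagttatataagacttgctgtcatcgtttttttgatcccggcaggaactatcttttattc
The HSP12 window held 2 such elements and the HSP42 window 3. The HSP42 window also held 1 unmarked match to GAANNTTC, a heat shock element pair, and the HSP12 window 0. GAANNTTC stood in 15.6% of windows of genes that rose at least 2-fold and in 10.2% of all windows. Which element bears on the HSP42 rise was not tested. AGGGG stood on either strand in 38 of 64 such windows of genes that rose at least 2-fold (59.4%), in 10 of 61 windows of genes that fell at least 2-fold (16.4%) and in 20.2% of the 5826 windows of all tested protein-coding genes.

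**Figure D2:**
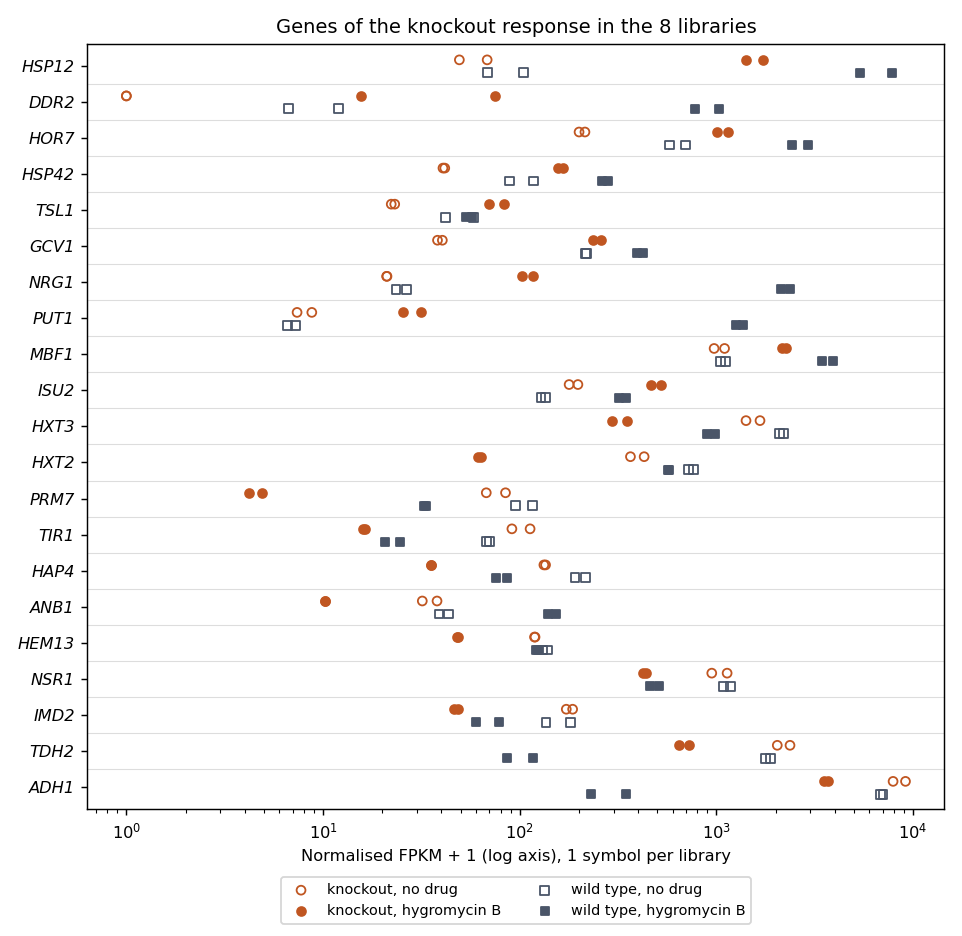
Normalised FPKM + 1 (log axis) of 21 genes in all 8 libraries, 1 symbol per library, circles for the knockout and squares for wild type, open without and filled with hygromycin B. For HSP12 the treated knockout circles sit at about 1414 and 1722, between the untreated circles and the treated wild-type squares, and for HXT2, PRM7, ANB1 and HEM13 the treated knockout circles are the lowest of the 8.

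Reserve carbohydrate genes rose with the stress genes, beside 20.9% of all genes that rose and 22.3% that fell. Trehalose, a disaccharide that protects membranes and proteins, is made by the complex of Tps1, Tps2, Tps3 and Tsl1 and broken down by the trehalases Nth1 and Nth2. Of 9 tested genes of trehalose metabolism 7 rose and none fell (median log2 0.89; 7 rose without any one of the 4 knockout libraries). TSL1, the regulatory subunit of the synthase, stood at 22.1 and 21.2 normalised FPKM in the untreated and 68.5 and 82.5 in the treated knockout libraries (log2 change 1.75, SE 0.16, adjusted p = 0.000713). TPS1, the synthase itself, rose by 0.94 (adjusted p = 0.000849) on the log2 scale, and the trehalases NTH1 and NTH2 rose by 0.89 (adjusted p = 0.000232) and 0.70 (adjusted p = 0.000853), so genes for making and for degrading the sugar were both higher. TSL1 differed from wild type, where its log2 change was 0.15 (interaction log2 1.60, adjusted p = 0.00112). In glycogen metabolism 7 of 13 genes rose and 1 fell (median 0.38; 4 rose without untreated library 1, 3 without untreated library 2 and 3 without treated library 2). GSY2, the main glycogen synthase, went from 51.6 and 48.0 to 127 and 133 normalised FPKM in the knockout and from 156 and 108 to 89.6 and 80.8 in wild type. It rose in the knockout (log2 change 1.37, adjusted p = 0.00150) and fell in wild type, and the difference passed the test (interaction log2 1.97, adjusted p = 0.000495). PIG2, which targets a phosphatase to glycogen synthase, rose by 0.90 (adjusted p = 0.00489).

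Molecular chaperones moved in both directions, and their counts stand beside 20.9% of all genes that rose and 22.3% that fell. Of 32 tested members of the chaperone list 13 rose and 10 fell, with a median log2 change of 0.17 (6 fell without untreated library 2 and 6 without treated library 2). Those that rose included HSP78 (log2 change 1.61, adjusted p = 0.000532), the mitochondrial disaggregase, BTN2 (log2 change 1.55, adjusted p = 0.000132), which sorts misfolded proteins, HSP104 (log2 change 1.12, adjusted p = 0.00226), the cytosolic disaggregase, and HSP82 (log2 change 0.94, adjusted p = 0.000331), the inducible Hsp90. HSP82 levels were 159.7 and 157 normalised FPKM in the untreated and 304 and 307 in the treated knockout libraries, a rise seen in both treated libraries. The 10 that fell included all 4 listed members of the system that sits on the ribosome and folds nascent chains. SSZ1, a subunit of the ribosome-associated complex, stood at 686 and 695 normalised FPKM in the untreated and 419.5 and 410.0 in the treated knockout libraries (log2 change -0.73, SE 0.05, adjusted p = 0.000239). The log2 changes of its partner ZUO1 and of the ribosome-bound Hsp70 genes SSB1 and SSB2, near-identical copies, were -0.84, -0.75 and -0.47 (adjusted p = 0.000985, 0.00134 and 0.00487). The constitutive cytosolic Hsp70 gene SSA2 fell too, with a log2 change of -0.45 (adjusted p = 0.0155). With TPM scaling none of the 32 was called lower.

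Genes of glycine cleavage rose in the knockout, by more than in wild type. The glycine decarboxylase complex of mitochondria breaks glycine down to a one-carbon unit carried by tetrahydrofolate. GCV1, its aminomethyltransferase, stood at 37.2 and 39.4 normalised FPKM in the untreated and 236 and 257 in the treated knockout libraries (log2 change 2.65, SE 0.06, adjusted p = 3.20e-05). GCV2, the decarboxylase proper, stood at 11.9 and 12.2 normalised FPKM in the untreated and 64.1 and 71.5 in the treated knockout libraries (log2 change 2.40, SE 0.11, adjusted p = 0.000129). The carrier protein GCV3 went from 196 and 217 to 441 and 422 normalised FPKM (log2 change 1.06, adjusted p = 0.000367). All 3 pairs of treated values were above the untreated ones, which the naming rule had required of GCV1 and GCV2. The rises exceeded those of wild type for GCV1 (interaction log2 1.75, adjusted p = 3.01e-05), GCV2 (interaction log2 1.73, adjusted p = 0.000159) and GCV3 (interaction log2 1.03, adjusted p = 0.000315). In wild type GCV1 already stood at 217 and 215 normalised FPKM without the drug and reached 393 and 421 with it. The wider list of 20 one-carbon genes did not move one way, with 8 higher and 6 lower (3 fell without untreated library 1, 3 without untreated library 2 and 3 without treated library 2). Among all genes 20.9% rose and 22.3% fell. MIS1, the mitochondrial tetrahydrofolate synthase that uses the same one-carbon units, fell, with a log2 change of -0.65 (adjusted p = 0.000253). The window before GCV2 is shown because it is dense in TGACTC, the element bound by Gcn4, the activator of amino acid synthesis. Capitals mark TGACTC or its reverse complement GAGTCA (R64, 350 to 101 bases before the start codon).
GCV2 (chrXIII:637150-637399, plus strand): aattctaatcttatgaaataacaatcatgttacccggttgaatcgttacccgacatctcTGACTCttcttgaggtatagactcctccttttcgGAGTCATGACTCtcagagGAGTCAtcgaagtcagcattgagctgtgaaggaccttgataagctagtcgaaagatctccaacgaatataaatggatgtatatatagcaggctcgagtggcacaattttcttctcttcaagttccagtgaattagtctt
TGACTC stood on either strand in 6 of 64 windows of genes that rose at least 2-fold (9.38%) and in 4 of 61 of those that fell (6.56%). The GCV2 window held 4 matches, against at least 1 in 7.14% of all windows and in 61.3% of those of the list of amino acid synthesis genes. Over that list 9 of 62 genes rose and 24 fell (median -0.18; 12 fell without untreated library 2, 14 without treated library 1 and 12 without treated library 2). ARO9, an aromatic aminotransferase, rose by 1.07 (adjusted p = 0.000627) and HIS5 of histidine synthesis by 0.64 (adjusted p = 0.000648) on the log2 scale. Glutamine synthetase GLN1 fell from 879.9 and 952 to 432 and 400.0 normalised FPKM (log2 change -1.14, SE 0.07, adjusted p = 0.000253).

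Genes of the iron regulon rose, beside 20.9% of all genes that rose and 22.3% that fell. Aft1 and Aft2 turn on uptake and recycling of iron when the metal is short. Of 34 tested genes of the iron list 20 rose and 3 fell (median log2 0.39), and 15 to 18 rose when one knockout library was left out. ISU2, a scaffold for iron-sulfur clusters, stood at 177 and 197 normalised FPKM in the untreated and 521 and 466 in the treated knockout libraries (log2 change 1.40, SE 0.08, adjusted p = 0.000232). HMX1, the heme oxygenase that frees iron from heme, went from 39.4 and 45.9 to 119 and 107 normalised FPKM (log2 change 1.39, adjusted p = 0.000475). Both treated libraries exceeded both untreated ones for ISU2 and HMX1. CCC2, which loads copper onto the iron oxidase, and CTH1, which speeds decay of mRNAs for proteins that use iron, rose by 0.64 (adjusted p = 0.000713) and 0.58 (adjusted p = 0.000693). The HMX1 rise was larger than in wild type (interaction log2 0.58, adjusted p = 0.0138), the CCC2 rise smaller (interaction log2 -1.29, adjusted p = 5.63e-05), and for ISU2 the difference did not pass the threshold (interaction log2 0.06, adjusted p = 0.671). Over the list the wild-type median was 0.98.

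Genes that clear stalled ribosomes and damaged proteins rose more often than they fell, by small amounts. Of 43 genes of ribosome collision sensing, quality control and mRNA decay, 16 rose and 5 fell, beside 20.9% and 22.3% of all genes. MBF1, which keeps the reading frame on collided ribosomes, moved most among those named, at 972 and 1099 normalised FPKM in the untreated and 2255 and 2142 in the treated knockout libraries (log2 change 1.09, SE 0.09, adjusted p = 0.000643). CUE3 and RQT4, subunits of the complex that splits collided ribosomes, rose by 0.64 (adjusted p = 0.000296) and 0.65 (adjusted p = 0.000713) on the log2 scale, and UPF3 of nonsense-mediated decay by 0.71 (adjusted p = 0.000557). MBF1, CUE3 and RQT4 rose by more in wild type (interaction log2 -0.67, adjusted p = 0.00466 for MBF1), and for UPF3 the difference did not pass the threshold (interaction log2 -0.03, adjusted p = 0.768). In the proteasome list 19 of 46 rose and 1 fell (median 0.11; 12 rose without treated library 1 and 10 without treated library 2). Among them were the assembly chaperone PBA1, which rose by 0.48 (adjusted p = 0.000688), the assembly chaperone HSM3 by 0.42 (adjusted p = 0.00116), the lid subunit RPN8 by 0.48 (adjusted p = 0.00117) and the deubiquitinase UBP6 by 0.44 (adjusted p = 0.00124). RPN8 went from 461 and 434 to 632 and 616 normalised FPKM in the knockout and from 527 and 524 to 359 and 344 in wild type, opposite directions with an interaction past the threshold (interaction log2 1.06, adjusted p = 7.99e-05). In wild type 35 of the 46 proteasome genes fell, beside 38.4% of all genes, with a median of -0.72. Autophagy genes, which deliver cytoplasm to the vacuole, rose in 17 and fell in 2 of 36 cases (median 0.24; 11 rose without untreated library 2 and 9 without treated library 2). Log2 changes were 1.38 (adjusted p = 0.00154) for ATG41, 0.72 (adjusted p = 0.00136) for ATG21 and 0.55 (adjusted p = 0.000779) for ATG22, a vacuolar amino acid exporter.

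**Figure D3:**
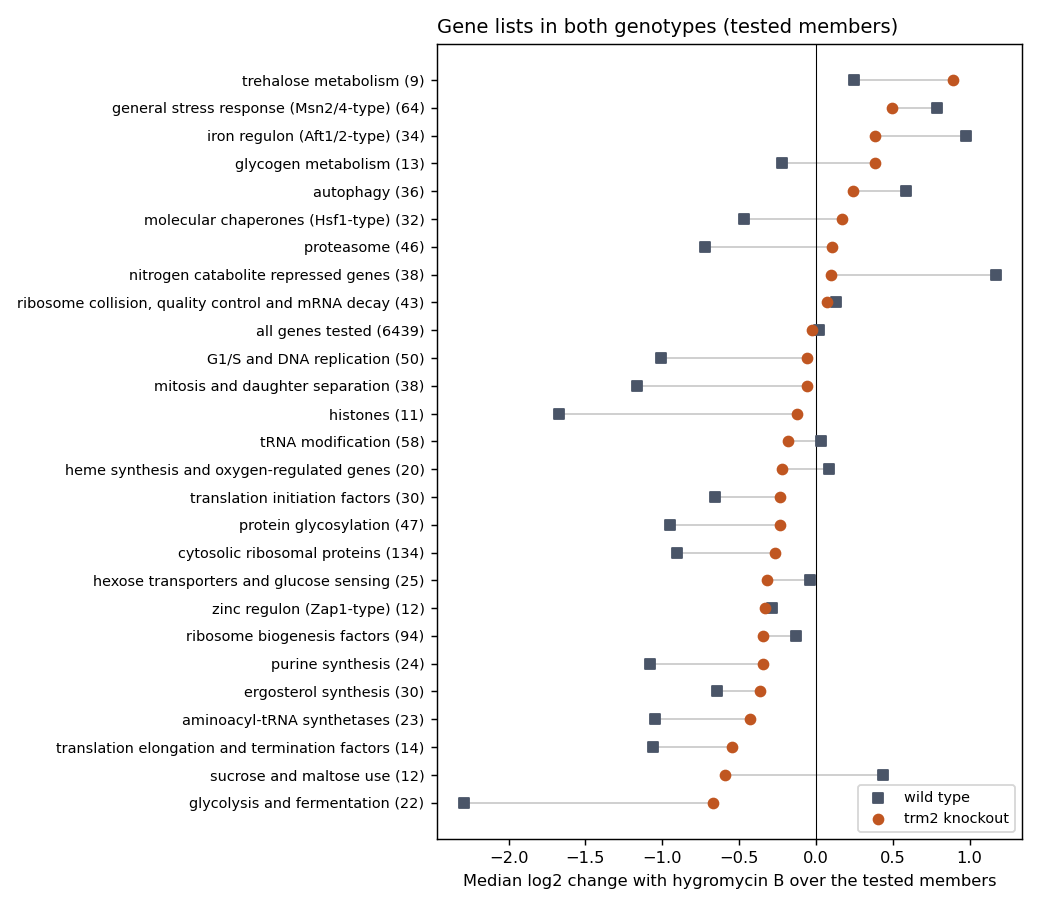
Median log2 change with hygromycin B over the tested members of 26 gene lists and all genes, circles for the knockout and squares for wild type; the number of members is in parentheses. The knockout medians run from -0.67 for glycolysis to 0.89 for trehalose and lie nearer to 0 than the wild-type ones for histones and both cell cycle lists; histones and cytosolic ribosomal proteins change side relative to all genes under quantile normalisation.

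Hexose transporters and glucose sensors fell, beside 22.3% of all genes that fell and 20.9% that rose. Of 25 tested genes 13 fell and 2 rose, with a median log2 change of -0.32, and 11 or 12 fell when one knockout library was left out. HXT3, a low-affinity glucose transporter, stood at 1413 and 1665 normalised FPKM in the untreated and 351 and 295 in the treated knockout libraries (log2 change -2.25, SE 0.12, adjusted p = 0.000136). HXT2, a high-affinity transporter, stood at 365 and 428 normalised FPKM in the untreated and 62.4 and 60.6 in the treated knockout libraries (log2 change -2.66, SE 0.08, adjusted p = 6.84e-05). The treated values of both were far below the untreated ones, and the rule that named them required no overlap. HXT4 went from 196 and 173 to 44.8 and 47.9 normalised FPKM (log2 change -1.97, adjusted p = 0.000132) and HXT1, the other main low-affinity transporter, from 561 and 613 to 223 and 216 (log2 change -1.41, adjusted p = 0.000132). Transporters of high and low affinity were thus lower together. The co-repressors of Rgt1, MTH1 and STD1, fell, with log2 changes of -1.61 and -0.74 (adjusted p = 8.90e-05 and 0.000232). The sensor SNF3 and the glucose-induced repressor MIG2 changed by -0.86 and -1.37 (adjusted p = 0.000435 and 0.00165). NRG1, a repressor of glucose-repressed genes, moved the other way and stood at 20.1 and 20.1 normalised FPKM in the untreated and 102 and 116 in the treated knockout libraries (log2 change 2.38, SE 0.09, adjusted p = 8.90e-05). Wild type differed at these genes. HXT2 was at 719.6 and 760.0 normalised FPKM without and 568 and 573 with the drug and fell less (interaction log2 -2.29, adjusted p = 2.85e-05). MTH1 rose there by 0.48 (interaction log2 -2.09, adjusted p = 2.21e-05). HXT3 fell less (interaction log2 -1.06, adjusted p = 0.00155), HXT4 fell more (interaction log2 1.11, adjusted p = 0.000598), and NRG1 reached 2362 and 2132 normalised FPKM (interaction log2 -4.11, adjusted p = 8.55e-06).

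The window before HXT3 is shown with the Rgt1-type element CGGANNA in capitals, or its reverse complement TNNTCCG (R64, 350 to 101 bases before the start codon), because HXT3 was the most abundant of the transporters that fell.
HXT3 (chrIV:1164761-1165010, minus strand): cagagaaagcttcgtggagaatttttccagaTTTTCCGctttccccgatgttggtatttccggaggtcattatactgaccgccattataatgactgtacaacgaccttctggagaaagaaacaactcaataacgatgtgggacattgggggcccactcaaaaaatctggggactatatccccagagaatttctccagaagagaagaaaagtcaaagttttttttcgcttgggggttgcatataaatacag
CGGANNA stood in 13 of 25 windows of the hexose list (52.0%), in 24 of 61 windows of genes that fell at least 2-fold (39.3%), in 25.0% of those that rose at least 2-fold and in 25.5% of all windows. Genes for other sugars fell as well: 6 of 12 sucrose and maltose genes fell and none rose (median -0.59), beside 22.3% and 20.9% of all genes. The maltose permease MAL31 went from 31.3 and 33.4 to 14.4 and 12.7 normalised FPKM (log2 change -1.20, adjusted p = 0.000248) and invertase SUC2 from 71.3 and 79.8 to 45.7 and 45.5 (log2 change -0.71, adjusted p = 0.000714). The maltose genes are near-identical repeats at several chromosome ends, so the split of reads among them is uncertain. MAL11 and the activator gene MAL33, with knockout log2 changes of -0.91 and -0.73, rose in wild type by 0.68 and 2.52 (interaction log2 -3.25, adjusted p = 2.41e-05 for MAL33).

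Genes of glycolysis fell from very high levels. Of 22 glycolytic and fermentative genes 16 fell and 4 rose, with a median log2 change of -0.67, beside 22.3% and 20.9% of all genes. ADH1, the main fermentative alcohol dehydrogenase, stood at 7909 and 9146 normalised FPKM in the untreated and 3705 and 3523 in the treated knockout libraries (log2 change -1.23, SE 0.19, adjusted p = 0.00334). TDH2, a glyceraldehyde-3-phosphate dehydrogenase, went from 2038 and 2365 to 722 and 642 normalised FPKM (log2 change -1.69, SE 0.16, adjusted p = 0.000736). Both genes were lower in both treated libraries. The falls ran through the pathway, with log2 changes for hexokinase HXK2 at -1.24, phosphoglucose isomerase PGI1 at -0.72, phosphofructokinase PFK1 at -0.56, aldolase FBA1 at -0.97, enolase ENO2 at -1.13 and pyruvate kinase CDC19 at -0.94 (adjusted p from 0.000281 for HXK2 to 0.00411 for ENO2). FBA1 missed the threshold under quantile normalisation (adjusted p = 0.326). TDH3, the most abundant of the list in the untreated knockout, had a log2 change of -0.65 (adjusted p = 0.0237), a call that was lost without untreated library 2, treated library 1 or treated library 2 (adjusted p = 0.120, 0.0936 and 0.0974) and under quantile normalisation. The glucose-repressed sugar kinases rose instead: HXK1 by 1.20 (adjusted p = 0.000985) and GLK1 by 0.92 (adjusted p = 0.00171). Wild type fell much further at the abundant genes, with ADH1 at 7031 and 6859 without and 230.2 and 347 normalised FPKM with the drug (interaction log2 3.38, adjusted p = 0.000108), and over the list the wild-type median was -2.29.

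Translation genes fell as a group of small changes, and their counts stand beside 22.3% of all genes that fell and 20.9% that rose. Of 14 elongation and termination factors 12 fell and none rose (median log2 -0.54). Among 23 aminoacyl-tRNA synthetases 20 fell and none rose (median -0.43). Among 30 initiation factors 16 fell and 1 rose (median -0.23; 8 fell without untreated library 2, 10 without treated library 1 and 8 without treated library 2). TEF4, a subunit of the exchange factor of the elongation factor that delivers tRNA, stood at 1776 and 2004 normalised FPKM in the untreated and 829 and 868 in the treated knockout libraries (log2 change -1.15, SE 0.12, adjusted p = 0.000945). TEF4 holds a small nucleolar RNA in its intron, as do RPL7B and IMD4 below, so reads of the 2 could be mixed. YEF3, the fungal elongation factor that helps release tRNA from the exit site, went from 1831 and 1865 to 1234 and 1186 normalised FPKM (log2 change -0.61, adjusted p = 0.00112), and its relative NEW1 changed by -0.47 (adjusted p = 0.00150). The treated libraries were the lower ones for each. The log2 change was -0.81 for the helicase DED1 and -0.58 for TIF2, a gene for the helicase of the cap-binding complex, whose near-identical copy is TIF1 (adjusted p = 0.000785 and 0.000763). Among the synthetases, THS1 for threonine stood at 662 and 660.4 normalised FPKM in the untreated and 433 and 431 in the treated knockout libraries (log2 change -0.61, SE 0.04, adjusted p = 0.000335). KRS1 for lysine, VAS1 for valine and HTS1 for histidine fell, with log2 changes of -0.63, -0.55 and -0.45. With TPM scaling, where the median of all genes stood at 0.26, 2 elongation factors, 0 synthetases and 0 initiation factors were called lower, while the list medians stayed below that of all genes.

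Ribosome assembly fell with them, beside 22.3% of all genes that fell and 20.9% that rose. Of 94 ribosome biogenesis factors 64 fell and none rose, with a median log2 change of -0.34. There were 46 to 56 falls when one knockout library was left out, and 3 with TPM. NSR1, the yeast nucleolin, stood at 946 and 1132 normalised FPKM in the untreated and 439 and 423 in the treated knockout libraries (log2 change -1.26, SE 0.10, adjusted p = 0.000514). DBP2, an RNA helicase, went from 594 and 651 to 259.7 and 241 normalised FPKM (log2 change -1.31, SE 0.10, adjusted p = 0.000474). KRR1 and RRP5, which act in early processing of pre-rRNA, fell, with log2 changes of -0.63 and -0.68. The untreated libraries were above the treated ones for all 4. DBP2 and RRP5 fell less in wild type (interaction log2 -0.58, adjusted p = 0.0109 for DBP2; interaction log2 -0.40, adjusted p = 0.00397 for RRP5). Over the list more genes fell than rose in wild type too, with 45 lower and 20 higher, beside 38.4% and 40.4% of all genes. The genes for RNA polymerases I and III moved likewise, with 18 of 33 lower and 5 higher (median -0.21; 11 fell without untreated library 2 and 9 without treated library 2). RPC31, RPC19, RPA190 and RPA12 had log2 changes of -0.61, -0.66, -0.56 and -0.55. The NSR1 window is shown because promoters of this class share the PAC element GATGAG, in capitals here on either strand (R64, 350 to 101 bases before the start codon).
NSR1 (chrVII:807757-808006, minus strand): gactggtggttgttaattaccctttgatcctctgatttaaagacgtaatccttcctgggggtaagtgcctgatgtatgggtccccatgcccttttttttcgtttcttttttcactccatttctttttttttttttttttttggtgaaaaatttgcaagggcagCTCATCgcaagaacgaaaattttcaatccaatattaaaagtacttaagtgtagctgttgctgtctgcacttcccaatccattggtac
GATGAG stood in 68.1% and AAAATTTT, the core of the companion RRPE element, in 75.5% of the windows of the biogenesis list, against 15.8% and 8.45% of all windows. Among windows of genes that fell at least 2-fold the shares were 21.3% and 19.7%.

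The direction of cytosolic ribosomal protein genes depended on the scaling. Under the median-of-ratios scaling 66 of 134 fell and 2 rose (median log2 -0.27), and under quantile normalisation 1 fell and 14 rose, and the median lay at 0.03. The falls numbered 43 fell without untreated library 1, 8 without untreated library 2, 34 without treated library 1 and 7 without treated library 2, and 42 with the replicate number as a block. RPL1A, for example, stood at 2031 and 2192 normalised FPKM in the untreated and 1503 and 1466 in the treated knockout libraries (log2 change -0.51, SE 0.07, adjusted p = 0.00199). RPL7B was one of the 2 that rose, from 298 and 324 to 483 and 468 normalised FPKM (log2 change 0.61, adjusted p = 0.000815). In wild type 123 of the 134 fell, with a median of -0.90, beside 38.4% of all genes. Mitochondrial ribosomal proteins fell in 26 and rose in 2 of 70 cases (median -0.19; 14 fell without untreated library 1, 13 without untreated library 2, 15 without treated library 1 and 10 without treated library 2). These counts too stand beside 22.3% and 20.9% of all genes. The log2 changes were -0.42 (adjusted p = 0.000841) for MRPL13 and -0.46 (adjusted p = 0.000899) for RSM19. Among 58 genes of tRNA modification, the class TRM2 belongs to, 24 fell and 5 rose (median -0.18; 14 fell without untreated library 2 and 11 without treated library 2). TRM11, which methylates a guanosine of the D arm of tRNA, changed by -0.49 (adjusted p = 0.00137) and MTO1, which modifies wobble uridines in mitochondria and overlaps the reading frame YGL235W, by -0.79 (adjusted p = 0.00159). UBA4, needed for thiolation of wobble uridines in the cytosol, was the exception among those named, rising from 57.4 and 58.9 to 76.8 and 80.9 normalised FPKM (log2 change 0.43, adjusted p = 0.00179).

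**Figure D4:**
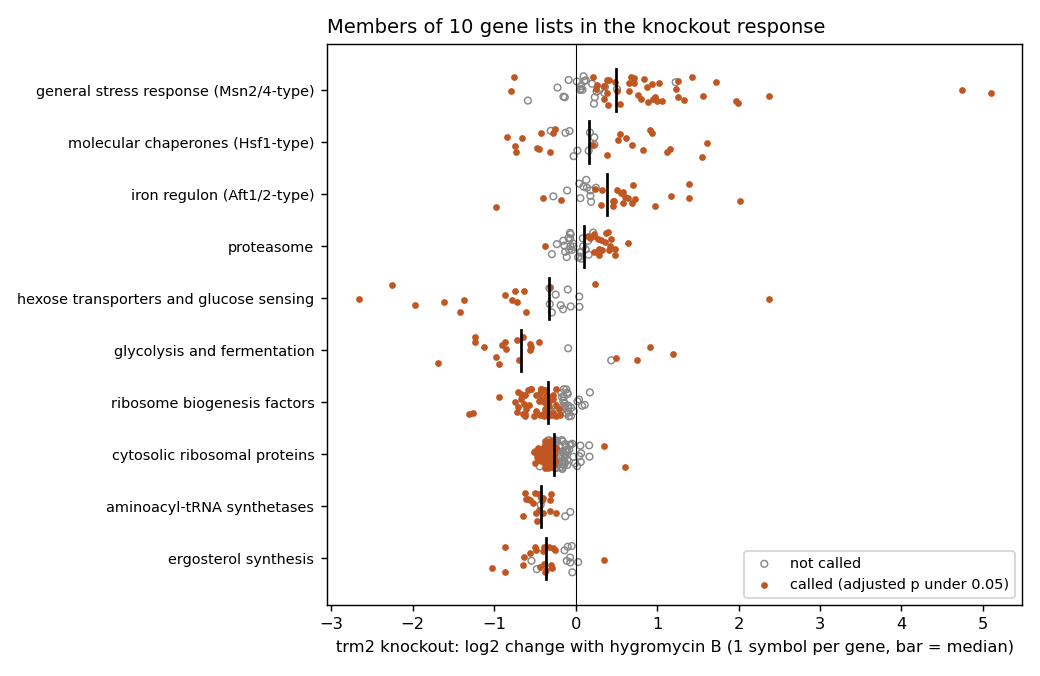
Log2 change with hygromycin B in the knockout of each tested member of 10 gene lists, filled where called and open where not, with a bar at the median. Members of the stress and iron lists extend to the right (medians 0.50 and 0.39), synthetases lie to the left (median -0.43), and chaperones lie on both sides; the leftward position of cytosolic ribosomal proteins was not kept under quantile normalisation.

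Oxygen-regulated genes moved in both directions, and the respiratory activator HAP4 fell. Of 20 genes of heme synthesis and oxygen regulation 9 fell and 4 rose (median log2 -0.22). HAP4, the activating subunit of the complex that drives respiratory genes, stood at 134 and 132 normalised FPKM in the untreated and 34.4 and 34.5 in the treated knockout libraries (log2 change -1.92, SE 0.08, adjusted p = 0.000129). Among 52 genes of the tricarboxylic acid cycle and respiratory chain, 19 fell and 2 rose (median -0.17; 10 fell without untreated library 2, 12 without treated library 1 and 11 without treated library 2). Of all genes 22.3% fell and 20.9% rose. Aconitase ACO1 fell from 131 and 137 to 78.3 and 81.1 normalised FPKM (log2 change -0.74, adjusted p = 0.000474). HEM13, a heme synthesis enzyme that is induced when oxygen is low, stood at 118 and 119 normalised FPKM in the untreated and 47.0 and 47.6 in the treated knockout libraries (log2 change -1.30, SE 0.05, adjusted p = 8.90e-05). ANB1, the hypoxic gene for the elongation factor that relieves stalls at proline runs, stood at 31.0 and 37.0 normalised FPKM in the untreated and 9.20 and 9.17 in the treated knockout libraries (log2 change -1.77, SE 0.10, adjusted p = 0.000203). AAC3, a hypoxic nucleotide carrier of mitochondria, went from 34.3 and 37.2 to 15.2 and 14.0 (log2 change -1.24, adjusted p = 0.000312). These 3 hypoxic genes were lower in both treated libraries. Another 2 hypoxic genes rose: COX5B, a subunit of cytochrome oxidase, by 1.09 (adjusted p = 0.000985) and CYC7, the minor cytochrome c, by 1.75 (adjusted p = 0.00192). In wild type ANB1 rose by 1.83 (interaction log2 -3.60, adjusted p = 1.48e-05), HEM13 changed by -0.13 (interaction log2 -1.18, adjusted p = 3.63e-05) and AAC3 had a log2 change of 0.03 that did not pass the test (interaction log2 -1.26, adjusted p = 0.000211). TIR1, a cell wall mannoprotein induced by cold and low oxygen, was among the lowest of all genes, at 90.2 and 112 normalised FPKM in the untreated and 15.0 and 15.3 in the treated knockout libraries (log2 change -2.65, SE 0.12, adjusted p = 0.000129), and it fell less in wild type (interaction log2 -1.04, adjusted p = 0.00196).

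Genes of purine and ergosterol synthesis fell. Of 24 genes of purine synthesis and salvage 16 fell and 2 rose (median log2 -0.35). IMD2 and IMD4 encode inosine monophosphate dehydrogenase, which commits purines to guanine nucleotides. IMD2 stood at 171 and 185 normalised FPKM in the untreated and 47.6 and 45.1 in the treated knockout libraries (log2 change -1.92, SE 0.17, adjusted p = 0.000645). IMD4 stood at 547 and 563 normalised FPKM in the untreated and 256 and 253 in the treated knockout libraries (log2 change -1.12, SE 0.05, adjusted p = 0.000132). Both fell in both treated libraries, although the 2 sequences are close enough for reads to be misassigned. The salvage gene HPT1, a phosphoribosyltransferase, fell, with a log2 change of -1.01 (adjusted p = 0.000508). Of 30 ergosterol genes 19 fell and 1 rose (median -0.37). ERG11, the lanosterol demethylase that azoles inhibit, stood at 515 and 521 normalised FPKM in the untreated and 288 and 278 in the treated knockout libraries (log2 change -0.87, SE 0.05, adjusted p = 0.000168). ERG1 and ERG2 fell, with log2 changes of -0.65 and -0.64. ERG11 fell more than in wild type (interaction log2 -0.32, adjusted p = 0.00545) and ERG2 less (interaction log2 1.23, adjusted p = 0.000177). In the list of fatty acid, phospholipid and sphingolipid synthesis 18 of 46 fell and 6 rose (median -0.20; 11 fell without treated library 1 and 11 without treated library 2), beside 22.3% and 20.9% of all genes, and 2 fell with TPM. The fatty acid desaturase OLE1 went from 904 and 934 to 403 and 434 normalised FPKM (log2 change -1.13, adjusted p = 0.00147), and SUR2, a sphingolipid hydroxylase, from 233 and 236 to 109 and 105 (log2 change -1.12, adjusted p = 8.90e-05). SUR2 fell less in wild type (interaction log2 -0.77, adjusted p = 0.000139). Zinc genes fell in 7 of 12 cases and none rose (median -0.33), with log2 changes for the uptake transporter ZRT1 at -0.97 (adjusted p = 0.000238), the membrane proteins IZH1 and IZH2 at -0.93 and -0.57 and the vacuolar transporter ZRC1 at -0.56. Protein glycosylation genes fell in 27 and rose in 4 of 47 cases (median -0.23; 17 fell without treated library 2). The log2 changes of PMI40 and SEC53, which make the mannose donor, were -0.67 and -0.54, and those of the mannosyltransferases PMT4 and KTR3 -0.58 and -0.59. The wild-type median of the list was -0.95. With TPM scaling the falls numbered 4 in the purine, 2 in the ergosterol, 2 in the zinc, 0 in the glycosylation, 7 in the hexose and 4 in the glycolysis list. With FPKM as deposited they numbered 1 in the purine and 3 in the hexose list. They numbered 0 in the ergosterol, zinc, glycosylation and glycolysis lists.

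Other genes among the lowest belonged to none of these groups or to mixed ones. PRM7 and BSC1, reading frames of uncertain function, fell furthest among genes detected in all 4 libraries. PRM7 stood at 66.6 and 83.7 normalised FPKM in the untreated and 3.87 and 3.19 in the treated knockout libraries (log2 change -4.06, SE 0.14, adjusted p = 8.90e-05). BSC1 went from 84.9 and 108 to 5.10 and 2.72 normalised FPKM (log2 change -4.34, adjusted p = 0.000236). Both fell less in wild type (interaction log2 -2.39, adjusted p = 0.000150 for PRM7; interaction log2 -2.42, adjusted p = 0.00166 for BSC1). YKR075C, without an assigned function, went from 239.9 and 269 to 56.7 and 36.9 (log2 change -2.45, adjusted p = 0.000468) and had a wild-type log2 change of -0.23 (interaction log2 -2.22, adjusted p = 0.000526). STP4, a zinc finger protein, and PHM6, a phosphate-regulated gene, changed by -2.19 (adjusted p = 0.000132) and -1.99 (adjusted p = 0.000236). PHM6 had a log2 change of -2.01 in wild type (interaction log2 0.02, adjusted p = 0.927). AQR1, a plasma membrane exporter of the multidrug family, went from 159.7 and 164 to 71.6 and 59.4 normalised FPKM (log2 change -1.30, adjusted p = 0.000315), while its wild-type log2 change was 0.03 (interaction log2 -1.32, adjusted p = 0.000215). UTR2, a cell wall transglycosylase, stood at 743 and 775 normalised FPKM in the untreated and 419.9 and 405 in the treated knockout libraries (log2 change -0.88, SE 0.07, adjusted p = 0.000474). YLR342W-A, at 30.2 and 36.5 normalised FPKM without the drug, was listed at 0 in both treated libraries, and the small nucleolar RNA snR80, at 47.0 and 25.5 without it, at 9.14 and 0, so no fold is given. The libraries were made from poly(A) RNA freed of small RNA, so values of small nucleolar RNAs are uncertain.

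Cell cycle genes, histones and nitrogen genes had medians near 0 in the knockout and far from it in wild type. The knockout counts that follow stand beside 20.9% of all genes that rose and 22.3% that fell. Of 50 genes of G1/S and DNA replication 8 rose and 5 fell in the knockout (median log2 -0.06; 5 rose without untreated library 1, 4 without untreated library 2, 4 without treated library 1 and 4 without treated library 2), against 38 that fell in wild type, beside 38.4% of all genes (median -1.01), and the interaction passed for 33 in the direction of a higher knockout change, beside 1972 of all genes (30.6%). CLB5, the cyclin of S phase, went from 55.7 and 49.6 to 75.9 and 73.5 normalised FPKM in the knockout and from 52.9 and 54.4 to 14.4 and 14.5 in wild type (interaction log2 2.32, adjusted p = 1.48e-05). ORC6 of the origin recognition complex rose by 0.55 (adjusted p = 0.00171), and the ribonucleotide reductase genes RNR2 and RNR4 fell, with log2 changes of -0.73 and -0.95. For RNR4 the difference between genotypes did not pass the threshold (interaction log2 -0.07, adjusted p = 0.350). Of 38 genes of mitosis and daughter separation 7 fell and 5 rose in the knockout (3 fell without untreated library 1, 2 without untreated library 2, 4 without treated library 1 and 2 without treated library 2), and 34 fell in wild type, where the median was -1.17, and DSE1, a daughter-cell protein, rose by 0.77 (adjusted p = 0.000945) in the knockout. Histone genes fell in 3 and rose in 2 of 11 cases in the knockout (1 fell without untreated library 2, 1 without treated library 1 and 1 without treated library 2; median -0.12, and 0.15 under quantile normalisation) and fell in 10 in wild type (median -1.67). The variant HTZ1 stood at 244 and 266 normalised FPKM in the untreated and 184 and 173 in the treated knockout libraries (log2 change -0.51, SE 0.06, adjusted p = 0.00181). Nitrogen catabolite repressed genes, which serve poor nitrogen sources, rose in 13 and fell in 5 of 38 cases in the knockout (median 0.10), against rises in 29 in wild type, beside 40.4% of all genes (median 1.17). PUT1, proline oxidase, stood at 7.77 and 6.38 normalised FPKM in the untreated and 24.6 and 30.6 in the treated knockout libraries. In wild type it went from 6.26 and 5.57 to 1359.6 and 1255 normalised FPKM. It rose in both genotypes, by 1.82 (adjusted p = 0.000351) in the knockout and 7.56 in wild type (interaction log2 -5.74, adjusted p = 8.62e-06). DAL3 of allantoin use followed the same pattern, with 0.67 (adjusted p = 0.00112) and 5.04, while PUT2 rose by 0.49 (adjusted p = 0.000853) and the activator gene PUT3 fell, with a log2 change of -0.49.

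Of the 324 genes that changed in opposite directions, 130 rose in the knockout and fell in wild type and 194 did the reverse. LSO1, a small protein related to the ribosome dormancy factor Lso2, went from 2.67 and 5.89 to 26.1 and 14.3 normalised FPKM in the knockout and from 18.1 and 28.5 to 2.51 and 4.21 in wild type. The knockout rise (log2 change 2.02, SE 0.42, adjusted p = 0.0108) was lost without untreated library 1 or treated library 1 (adjusted p = 0.0526 and 0.0614), while the difference between genotypes was large (interaction log2 4.49, adjusted p = 0.000879). PCL1, a G1 cyclin, went from 71.2 and 77.6 to 92.0 and 97.5 normalised FPKM in the knockout and from 88.0 and 89.2 to 4.26 and 5.19 in wild type. Its small knockout rise (log2 change 0.35, SE 0.09, adjusted p = 0.0217) was lost without any one of the 4 knockout libraries (adjusted p = 0.108 and 0.0502 without untreated library 1 or 2, 0.0656 and 0.124 without treated library 1 or 2). TDH1, the glyceraldehyde-3-phosphate dehydrogenase of slow-growing cells, rose from 51.4 and 53.1 to 72.5 and 76.0 normalised FPKM (log2 change 0.50, SE 0.10, adjusted p = 0.0106), a call lost without untreated library 1 or treated library 2 (adjusted p = 0.0562 and 0.0717), and fell in wild type (interaction log2 3.72, adjusted p = 1.48e-05). GPX2, a glutathione peroxidase, rose by 0.82 (adjusted p = 0.000853) in the knockout and changed by -1.46 in wild type (interaction log2 2.27, adjusted p = 2.88e-05). In the other direction, MDH2, the cytosolic malate dehydrogenase of gluconeogenesis, fell from 232 and 255 to 124 and 121 normalised FPKM in the knockout (log2 change -0.98, SE 0.08, adjusted p = 0.000514) and rose by 1.02 in wild type, a difference with an adjusted p of 3.78e-05.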

How the data were processed

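Poly(A) RNA of 8 cultures, freed of small RNA and depleted of ribosomal RNA per the labels' protocols, was sequenced. The deposited values are FPKM per gene computed by the authors; the tools, per the submitters' processing notes, were RSEM 1.3.3, STAR 2.7.8a, FastQC 0.11.8 and cutadapt 2.3. A build, an annotation and a strand setting are not given in the sources used here. RSEM divides reads among near-identical copies, so members of gene families (HXT, TDH, IMD, MAL, CUP1, ribosomal protein pairs) are uncertain, as are overlapping and antisense genes. Steps of whole reads were looked for in low values, against 10 shuffles of gene lengths a library. In 7 libraries at least 2 shuffles gave steps as strong, and in untreated knockout library 1 none did. Whole reads were not recovered, so depth is unknown and no counting interval is given; library sums ran from 1171274 to 1654849 FPKM.

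Each library was divided by a median-of-ratios factor (0.611 to 1.44, from 6317 features above 0 in all 8 libraries). Features with a mean of at least 1 FPKM were fitted as log2(normalised FPKM + 1) in limma 3.58.1 (R 4.3.3) with 4 group means, trended empirical Bayes moderation and 4 residual degrees of freedom; Benjamini-Hochberg adjustment ran over the 6439 features and the threshold was 0.05. The script was tested on simulated data. Fold changes are on this log2 scale, which understates those of low genes. P-values measure the spread between these libraries only.

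Genes were named by a rule: the 15 highest and lowest knockout changes with no overlap of replicates and a mean of at least 10 in the higher group, up to 4 members of each of 51 gene lists (1719 distinct names, 1 not matched) with the smallest p, the extremes of the interaction and of opposite changes, and the most abundant genes. Those of the groups described are printed. HXT1, SNF3, STD1, MIG2, HXK1, GLK1, ENO2, CDC19, HSP26, HSP104, ZUO1, SSB1, SSB2 and SSA2 were chosen after their values were seen. The genes and lists were chosen with earlier results of these data known. Of the features, 6047 matched the RefSeq R64 table, which supplied names and upstream windows; coordinates are those of R64, not of the deposited files. Motifs were searched on both strands with Python 3.11.15. Alternatives were other scalings, pseudocounts and filters, a replicate block, no trend, one genotype alone and leaving out each library.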

Additional observations from a re-analysis of the deposited data

Results flagged for a closer look

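The response of the knockout differed from that of wild type by a test of the difference itself for 4152 genes, as reported above, and the named genes among them are listed here with the interaction log2, which is the knockout change minus the wild-type change. The lowest values were -7.96 for YGR027W-A, -6.47 for YBR182C-A, -6.21 for YAR010C, -6.17 for CUP1-1 and CUP1-2, -5.82 for snR161, -5.80 for YER159C-A and -5.74 for PUT1. YGR027W-A, YAR010C and YER159C-A are reading frames of Ty retrotransposons, whose near-identical copies share reads. CUP1-1 and CUP1-2, identical copies of the copper metallothionein gene, were at 172 and 272 normalised FPKM in the untreated and 164 and 162 in the treated knockout libraries, and went from 405 and 341 to 21543 and 19126 in wild type. The highest values were 5.75 for YML100W-A, 5.41 for YHR073W-A, 4.65 for SRL1, 4.49 for LSO1, 4.37 for CIS3, 4.32 for PCL1, 4.17 for YOR248W and 3.94 for CWP2. SRL1, CIS3 and CWP2 are mannoproteins of the cell wall: SRL1 went from 719 and 823 to 566 and 529 normalised FPKM in the knockout and from 767 and 737 to 15.9 and 25.9 in wild type. Genes that changed in opposite directions in the 2 genotypes also included snR45 at -5.33, YER175W-A at -5.13, YLR410W-B, a Ty reading frame, at 3.89, TDH1 at 3.72, ANB1 at -3.60 and DUR1,2 at -3.34. The values of the small nucleolar RNAs snR161 and snR45 are uncertain, because the libraries were made from poly(A) RNA freed of small RNA.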

How the results depend on the processing

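Scaling changed the counts most. With FPKM as deposited 82 genes rose and 23 fell in the knockout, the 23 falls all by at least 2-fold, and in wild type 366 fell, while the interaction was past the threshold upward for 141 and downward for 328. List counts shrank too: as deposited 14 genes of the general stress, 4 of the iron, 2 of the trehalose, 1 of the autophagy and 0 of the proteasome list rose in the knockout. In the ribosome biogenesis, elongation and synthetase lists 0 fell. With TPM 143 fell in the knockout, 206 rose and 47 fell by at least 2-fold, 1180 fell in wild type, and the interaction passed upward for 870 and downward for 1368. Adding 10 in place of 1 before taking logs left 41 knockout genes at least 2-fold higher and 48 lower. Fits without one library gave 716 to 1594 rises and 733 to 1689 falls in the knockout, 67 to 89 and 67 to 93 of at least 2-fold, 2394 to 2556 and 2303 to 2466 in wild type, and 1684 to 2094 and 1905 to 2218 for the interaction; the library left alone in its group is taken to vary like the others. The causes were not tested. Of 160 genes followed through all settings, none changed direction under any setting. The naming rule favoured small p and large changes, and 157 of the 160 were called in the main fit. A stable direction was thus likely from the choice of genes and says little about the others. The call was lost by 115 as deposited, 51 with TPM and 5 under quantile normalisation. With the replicate number as a block 1355 genes rose and 1443 fell in the knockout, 5076 changed in wild type and the interaction passed for 4145, and apart from the falls of ribosomal proteins and the rises of the hexose list (1) no list count moved by over 1.5 times. Same-numbered libraries share only a number: their deviations correlated at -0.19 in the knockout and between -0.23 and 0.26 in the other pairs of groups. Counts of list members under these settings were added after seeing the data. With depth unknown and 2 libraries a group, small changes of weakly expressed genes are the least certain.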

Other observations

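Of 35 tested genes of methionine, cysteine and sulfate assimilation 14 rose and 5 fell in the knockout (9 rose without untreated library 1 and 9 without treated library 2). CBF1, a regulator of the pathway, went from 137 and 139.7 to 212 and 213 normalised FPKM (log2 change 0.61, SE 0.04, adjusted p = 0.000324), and MET1 and MET10 of sulfite reduction rose by 0.64 (adjusted p = 0.000474) and 0.64 (adjusted p = 0.000534) on the log2 scale. SAH1, which hydrolyses S-adenosylhomocysteine, the product left by methyltransferases, fell from 477 and 514 to 252 and 239.7 (log2 change -1.01, SE 0.08, adjusted p = 0.000514). Beside 20.9% and 22.3% of all genes, of 35 genes of the oxidative stress list 11 rose and 5 fell (7 rose without untreated library 1, 7 without untreated library 2 and 6 without treated library 2). The catalase CTT1 stood at 7.33 and 7.75 normalised FPKM in the untreated and 17.3 and 21.8 in the treated knockout libraries (log2 change 1.26, adjusted p = 0.00110). The glutathione transferase GTT2 had a log2 change of 0.97 (adjusted p = 0.000606), and the old yellow enzyme OYE2 one of -0.81.

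Genes of gluconeogenesis and acetate use did not move one way, with 5 of 20 higher and 4 lower in the knockout (3 rose without untreated library 1, 3 without untreated library 2, 3 without treated library 1 and 2 without treated library 2). Both counts of the full fit lie near the shares of all genes, 20.9% higher and 22.3% lower. CIT2, the peroxisomal citrate synthase that is raised when mitochondria signal to the nucleus, went from 49.4 and 61.8 to 127 and 138 normalised FPKM (log2 change 1.24, SE 0.13, adjusted p = 0.000971) and reached 1542 and 1314 in treated wild type. ALD6, the cytosolic acetaldehyde dehydrogenase, fell from 951 and 1103 to 584 and 575 (log2 change -0.82, SE 0.09, adjusted p = 0.00107). RIM8, of the pathway that senses ambient pH, rose by 0.60 (adjusted p = 0.000776), and its wild-type log2 change was 3.28 (interaction log2 -2.68, adjusted p = 8.48e-06).

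In 5 other lists the larger count did not move by over 1.5 times without any one knockout library. The numbers that rose and fell, beside 20.9% and 22.3% of all genes, were 7 and 5 of 24 for the phosphate regulon (3 fell without untreated library 1, 3 without treated library 1 and 3 without treated library 2), 7 and 5 of 27 for multidrug transport (3 fell without untreated library 1, 3 without untreated library 2, 2 without treated library 1 and 1 without treated library 2), 8 and 6 of 30 for the Rim101 pathway and sodium and potassium transport (2 fell without untreated library 1, 2 without untreated library 2, 3 without treated library 1 and 1 without treated library 2), 6 and 4 of 20 for polyamine and arginine transport and 3 and 3 of 13 for glycerol metabolism and osmolyte transport. In the lists that follow it did move, and each such library is named. The numbers that rose and fell were 7 and 1 of 16 for vacuolar proteases and hydrolases (4 rose without untreated library 2, 3 without treated library 1 and 2 without treated library 2), 13 and 4 of 44 for peroxisome and fatty acid oxidation (7 rose without untreated library 1, 7 without untreated library 2, 7 without treated library 1 and 5 without treated library 2) and 6 and 5 of 24 for thiamine and vitamin B6 synthesis (3 rose without untreated library 1, 3 without treated library 1 and 3 without treated library 2). They were 8 and 22 of 59 for cell wall proteins, synthesis and integrity (13 fell without untreated library 1, 10 without untreated library 2, 12 without treated library 1 and 11 without treated library 2) and 3 and 13 of 37 for folding in the endoplasmic reticulum (5 fell without untreated library 1, 4 without untreated library 2, 3 without treated library 1 and 3 without treated library 2). For smaller lists they were 3 and 8 of 18 for NAD synthesis (5 fell without untreated library 1, 5 without untreated library 2, 5 without treated library 1 and 5 without treated library 2), 1 and 5 of 11 for diphthamide and elongation factor modification (3 fell without untreated library 1, 2 without untreated library 2, 3 without treated library 1 and 3 without treated library 2) and 9 and 10 of 33 for mating and pheromone response (6 fell without treated library 2). The last were 2 and 4 of 24 for seripauperin, DAN and TIR mannoproteins (2 fell without untreated library 2), 1 and 2 of 11 for the copper regulon (1 fell without untreated library 2, 1 without treated library 1 and 1 without treated library 2) and 3 and 3 of 38 for sporulation and meiosis (1 rose without untreated library 1, 1 without treated library 1 and 1 without treated library 2; 1 fell without untreated library 1).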
